A study of Rattus norvegicus with 29 samples.

Results

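Injury was compared with sham operation in the rats of 1 site, UCLA. The comparison held 9 of the 29 rats of the series, 6 with TBI and 3 sham-operated experimental controls. They are all the UCLA rats of the series, taken by their site and group labels, and all miRNAs of the deposited table were used. The study looked for circulating miRNAs that mark the risk of epilepsy after TBI, with rats operated on at UEF, Monash and UCLA. Plasma miRNAs were sequenced, 1 library for each rat, so every p below measures the spread between rats.

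All rats were adult male Sprague-Dawley rats. The TBI rats had a severe injury by lateral fluid percussion under isoflurane anesthesia. In this model a pulse of fluid strikes the exposed dura over 1 side of the brain. Sham-operated controls had the same anesthesia and surgery without the impact. Both UCLA groups were given analgesia, saline and, unlike the rats of the other sites, antibiotics after surgery. Blood was taken from the tail vein under isoflurane into K2 EDTA tubes with a target time of 48 h after the operation (the exact time was not recorded at UCLA), and plasma was separated by centrifugation. Of the 6 injured rats, 3 were without epilepsy (TBI−) and 3 had epilepsy (TBI+) in the video-EEG recordings made months later. At the time of sampling these 2 groups had received the same treatment. The rat numbers in the labels are lower for all 3 sham rats than for any of the 6 injured rats. Whether the numbers follow the order of surgery is not stated, and any effect of such an order cannot be told apart from that of injury.

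A miRNA is a short RNA that guides an Argonaute protein to target mRNAs, mainly through its seed, the stretch of bases near its 5′ end. It is cut from a hairpin that can yield a 5p and a 3p arm, of which 1 is usually kept and the other largely degraded. Plasma miRNAs come largely from blood cells, platelets, liver and blood vessels, and some are enriched in single tissues such as brain, liver, muscle or skin. Red cells are rich in miR-451, miR-144, miR-486 and miR-16, so the ratio of miR-451 to miR-23a is used to gauge the red cell contents in plasma.

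The sequences of the miRNAs that the results turn on are given 5′ to 3′, with the seed (bases 2 to 8) in capitals. They are the RefSeq mature sequences of build GRCr8, in which 659 of the 739 miRNAs tested had an entry. The first group shares the seed AAAGUGC and comes from the miR-17 to miR-92a and miR-106b to miR-25 clusters, apart from miR-20b-5p of the related cluster with miR-363. It was picked for this count. Of its 5 members 3 had an unadjusted p below 0.05, all higher in TBI. This was so for 40 of all 739 miRNAs and for 26 of the 185 most abundant:
miR-93-5p: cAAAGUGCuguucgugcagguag
miR-20a-5p: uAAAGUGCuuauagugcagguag
miR-20b-5p: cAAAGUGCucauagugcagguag
miR-17-5p: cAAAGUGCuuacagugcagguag
miR-106b-5p: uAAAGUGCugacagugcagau

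The second group shares the seed AUUGCAC, which these clusters also encode. Of its members 2 had an unadjusted p below 0.05, both higher in TBI, against 40 of all 739 miRNAs and 26 of the 185 most abundant. All 5 had a log2 fold change above 0, against 319 of all 739:
miR-92a-3p: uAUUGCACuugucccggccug
miR-25-3p: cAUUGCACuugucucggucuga
miR-363-3p: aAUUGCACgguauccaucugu
miR-32-5p: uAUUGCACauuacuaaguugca
miR-92b-3p: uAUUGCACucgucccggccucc

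The other miRNAs shown that were higher in TBI share no seed with each other. miR-425-5p had the lowest p of those with counts in every rat, miR-451-5p, miR-144-3p and miR-16-5p are red cell miRNAs, and miR-301a-5p and miR-1-5p were listed at 0 in every sham rat:
miR-425-5p: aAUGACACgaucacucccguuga
miR-451-5p: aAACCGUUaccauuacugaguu
miR-144-3p: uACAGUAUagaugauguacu
miR-16-5p: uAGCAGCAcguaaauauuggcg
miR-301a-5p: gCUCUGACuuuauugcacuac
miR-1-5p: gCACAUACuucuuuauguaccc

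The miRNAs shown that were lower in TBI shared no seed with each other. They are miRNAs among those with the lowest p in this direction, the skin miRNAs miR-205 and miR-203a-3p, and miR-138-1-3p, whose difference was not the same at the 3 sites:
miR-24-1-5p: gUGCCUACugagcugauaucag
miR-196c-3p: aCAACAACaccaaaccaccuga
miR-3583-3p: cCUGACUUcucucuucaugcag
miR-92b-5p: aGGGACGGgacgcggugcaguguu
miR-130a-5p: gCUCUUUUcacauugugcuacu
miR-205: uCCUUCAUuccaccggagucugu
miR-203a-3p: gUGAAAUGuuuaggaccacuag
miR-138-1-3p: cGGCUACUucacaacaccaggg

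Depth was the sum of the counts over the 754 miRNAs of the table. It was 2035581, 1470861 and 2377718 in the sham rats, 2903673, 2309929 and 2163966 in the TBI− rats and 3976506, 2198033 and 3248044 in the TBI+ rats. The injured rats averaged 838638 counts more, within the spread between rats (two-sided exact permutation p = 0.119 over 84 regroupings; Benjamini-Hochberg adjusted over 6 library measures 0.179). A miRNA was taken as detected at 10 or more counts. By this rule 721, 721 and 731 miRNAs were detected in the sham rats, 733, 726 and 733 in the TBI− rats and 704, 688 and 701 in the TBI+ rats. The 3 TBI+ rats thus had the fewest, and the 3 TBI− rats lay at or near the sham rats. Over the 6 injured rats the difference from sham was −10.2 miRNAs (exact permutation p = 0.452). It depended on depth: for UCLA detected miRNAs, TBI minus sham, thinning every library to the lowest total gave −52.2. The median count of a miRNA lay between 63 and 108 in the 9 rats, so the lower part of the table was measured with less precision.

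Several libraries stood apart. In Spearman correlations of log2 CPM over the 739 miRNAs tested, which are not independent replicates, sham rats correlated with TBI− rats at a mean of 0.919 (9 pairs), as high as among themselves (0.918, 3 pairs). Their mean correlation with TBI+ rats was 0.875 (9 pairs), and that among the TBI+ rats was 0.939 (3 pairs). Sham rat 3 held 1300 counts of miR-347 against 36 and 46 in the other sham rats, and it had the most miR-205. TBI− rat 3 had the lowest miR-451-5p level of all 9 rats. TBI+ rat 1 had the largest total and the least miR-140-3p and miR-351-5p.

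The plasma label was checked against miRNAs of blood cells and of tissues. The 5 most abundant miRNAs were miR-16-5p and miR-486 (red cells), miR-191a-5p (blood cells), miR-150-5p (lymphocytes) and miR-140-3p. The liver miRNA miR-122-5p, a common plasma miRNA, was at 17501 ± 4706 CPM in sham (n = 3) and 14836 ± 5647 in TBI rats (n = 6). CPM denotes counts scaled to a common library size after TMM normalization, which sets each library so that most miRNAs do not differ. Muscle miRNAs were low, with summed levels of 478 to 1157 CPM. The neuronal miR-124-3p was lower still (27.1 to 42.7 CPM).

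The ratio of miR-451-5p to miR-23a-3p separated the groups. On the log2 scale it was −2.55, −2.90 and −3.32 in the sham rats, −1.06, −1.87 and −2.38 in the TBI− rats and −1.68, −2.37 and −1.70 in the TBI+ rats. Every injured rat lay above every sham rat, and miR-451 was below miR-23a in all 9. The difference of 1.08 had an exact permutation p of 0.0238, the smallest that 84 regroupings can give (adjusted over 6 library measures 0.0952).

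The share of counts held by the less abundant miRNAs, those below the median level of the miRNAs tested, was 0.866% ± 0.152 (SD) in sham (n = 3) and 0.562% ± 0.171 in TBI rats (n = 6; exact permutation p = 0.0476, adjusted 0.0952). Their summed counts were 16752 ± 3828 in sham and 14923 ± 2240 in TBI rats (exact permutation p = 0.405). Their counts thus differed less between the groups than their share did. TMM factors were also higher in the sham rats as a group. They were 1.07, 1.35 and 1.19 in the sham rats, 0.849, 1.03 and 1.15 in the TBI− rats and 0.727, 0.959 and 0.831 in the TBI+ rats (exact permutation p = 0.0476, adjusted 0.0952).

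**Figure D1:**
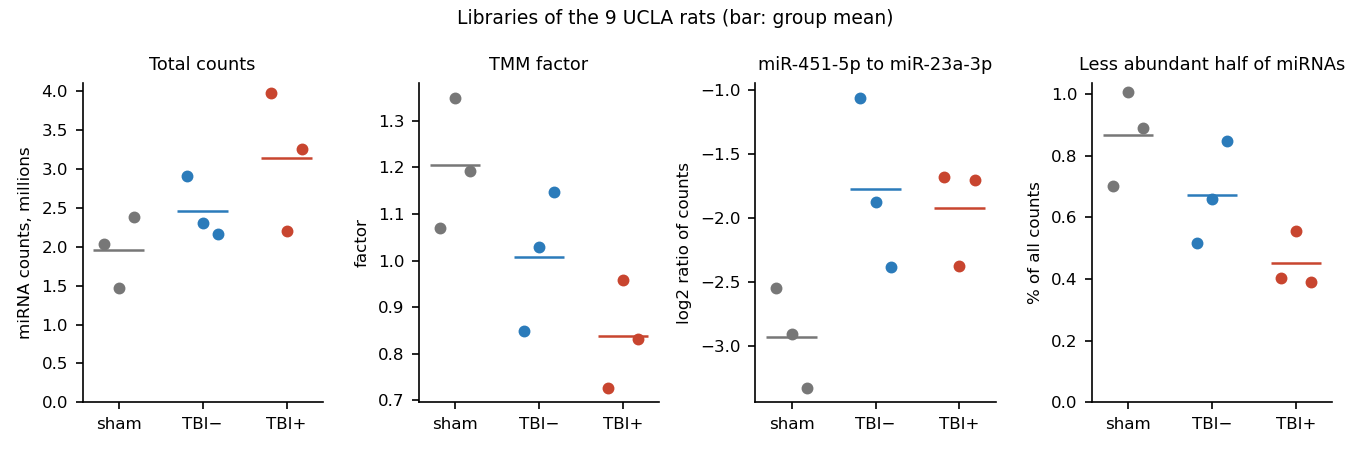
Total miRNA counts, TMM factor, log2 ratio of miR-451-5p to miR-23a-3p and percentage of counts in the less abundant miRNAs, with 1 point for each UCLA rat and a bar at the group mean (n = 3 each). The log2 ratio lies between −3.32 and −2.55 in the sham rats and between −2.38 and −1.06 in the injured rats.

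The main question was which plasma miRNAs differed between injured and sham rats. Some abundant miRNAs, among them miR-425-5p, miR-92a-3p and miR-93-5p, were higher in most or all TBI rats than in the sham rats. Some less abundant miRNAs were lower, among them miR-24-1-5p, miR-196c-3p and miR-130a-5p. In edgeR none of these differences passed the threshold after adjustment over all miRNAs: 0 of 739 (0%) had an adjusted p below 0.05, and the lowest adjusted p was 0.129. An unadjusted p below 0.05 was found for 95 miRNAs, 40 higher (5.41%) and 55 lower in TBI (7.44%). In DESeq2 7 of 737 miRNAs passed (0.95%): miR-425-5p, miR-92a-3p and miR-93-5p rose, and miR-24-1-5p and miR-196c-3p fell. The other 2 were miR-301a-5p and miR-1-5p, which were listed at 0 in every sham rat, and such a 0 may not be an ordinary low count. The median log2 fold change over the 739 miRNAs was −0.10, and 91.3% lay within 1 log2 unit of 0. At a given mean the rats varied with a biological coefficient of variation of 0.42.

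The balance between higher and lower miRNAs depended on the scaling. With the size factors of DESeq2 in edgeR the 98 miRNAs with an unadjusted p below 0.05 were split into 53 higher and 45 lower, and in DESeq2 itself 107 were split into 70 and 37. Upper-quartile scaling gave 44 higher and 45 lower. Scaling to miR-28-3p, the reference miRNA of the study, moved the median log2 fold change to −0.32 and gave 17 higher and 105 lower. Scaling to total counts, tried after the data were seen, moved it to −0.47 and gave 6 higher and 152 lower. Directions below are relative to the TMM scale, and each of the 95 miRNAs kept its sign under these 5 alternatives.

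The direction of the difference followed abundance. In the 185 most abundant miRNAs (mean 109 CPM or more) the median log2 fold change was 0.18, and 26 miRNAs with an unadjusted p below 0.05 were higher and 10 lower. In the next 184 miRNAs it was −0.10, with 9 higher and 15 lower. From 16.5 to 34.6 CPM (185 miRNAs) it was −0.24, with 2 higher and 26 lower, and in the 185 least abundant miRNAs it was −0.24, with 3 higher and 4 lower.

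**Figure D2:**
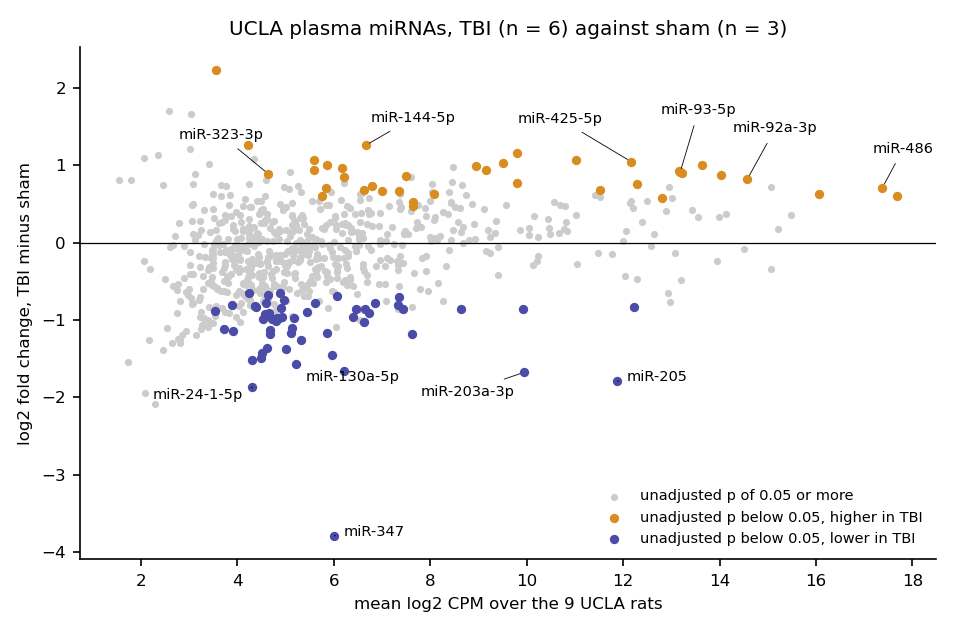
Log2 fold change (TBI minus sham) against mean log2 CPM of the miRNAs tested at UCLA, without miR-301a-5p and miR-1-5p, which were listed at 0 in all sham rats. Points with an unadjusted p below 0.05 in edgeR are coloured, and those higher in TBI lie mostly to the right (26 of 40 among the 185 most abundant).

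miR-425-5p, which is encoded beside miR-191 and is abundant in blood cells, had the lowest p of the miRNAs that were higher in TBI and had counts in every rat. It was at 3006, 2422 and 2641 CPM in the sham rats. In the TBI rats it ran from 3985 to 6332 CPM with a median of 5693. The groups did not overlap, and TBI− rat 3 was the lowest of the injured rats. Its log2 fold change was 1.04 (SE 0.24, edgeR adjusted p = 0.129), with 6 of 6 injured rats above the sham rats, and in DESeq2 it was 1.13 (adjusted p = 1.1e-04). With other settings and with each rat left out the log2 fold change ranged from 0.66 (total counts) to 1.17 (spread taken from all 29 rats).

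miR-92a-3p, a member of the miR-17 to miR-92a cluster that is abundant in red cells and platelets, was at 19031, 18373 and 11169 CPM in the sham rats. In the TBI rats the lowest, median and highest levels were 23432, 28517 and 33114 CPM. Every injured rat lay above every sham rat. The log2 fold change was 0.82 (SE 0.25, edgeR adjusted p = 0.312; DESeq2 0.90, adjusted p = 0.0295). miR-93-5p, from the cluster within the Mcm7 gene, was at 7064, 5012 and 5541 CPM in the sham rats and from 6824 to 14425 CPM in the TBI rats (median 11189). Only TBI− rat 3 overlapped the sham rats. Its log2 fold change was 0.90 (SE 0.28, edgeR adjusted p = 0.312; DESeq2 0.99, adjusted p = 0.0357). miR-20a-5p, with the same seed as miR-93-5p, was at 410.6, 312 and 565 CPM in the sham rats and from 437 to 1138 CPM in the TBI rats (median 921; log2 fold change of 1.02 with SE 0.34; edgeR adjusted p = 0.313). Again TBI− rat 3 lay within the sham range, and the 3 TBI+ rats were the highest.

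These miRNAs belong to 3 groups of neighbouring genes, which were chosen as lists after the values were seen and so support nothing by themselves. The list for the miR-17 to miR-92a cluster, known for its part in blood cell growth, also holds miR-19b-2-5p and miR-92a-2-5p of the related cluster with miR-363. Of it 14 miRNAs were tested, 6 had an unadjusted p below 0.05 and all 6 were higher in TBI, where over all miRNAs 40 of 739 were higher (5.41%). Of the 185 most abundant miRNAs 26 were higher at this p, with a median of 0.18. The median log2 fold change of the 14 was 0.57, against −0.10 over all miRNAs. miR-19b-3p had the largest fold change among them, at 565, 326 and 567 CPM in sham rats and 271 to 1399 in TBI rats (1.16, SE 0.45, edgeR adjusted p = 0.325). Of the miR-106b, miR-93 and miR-25 cluster 5 of 6 were above 0 and 3 of 6 were higher at an unadjusted p below 0.05, with a median of 0.59. Its most abundant member, miR-25-3p, was at 10822 ± 3041 CPM in sham (n = 3) and 19843 ± 4825 in TBI rats (n = 6), and miR-106b-5p was at 107 ± 17.3 and 103 ± 21.8. Of miR-191 and miR-425, 4 of 4 arms were above 0 and 3 were higher at an unadjusted p below 0.05, with a median of 0.65. All 3 medians stayed above 0 under every scaling, the lowest being 0.15, 0.20 and 0.24 with total counts.

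Members of the let-7 family, which restrain cell growth, share the seed GAGGUAG. Of 9 such miRNAs 6 were above 0 and 2 had an unadjusted p below 0.05, both higher (5.41% over all miRNAs, and 26 of the 185 most abundant). The median was 0.47. let-7i-5p was at 9507, 6062 and 7318 CPM in the sham rats and from 5531 to 20010 CPM in the TBI rats. TBI− rat 3 was the lowest of all 9 rats, and the other injured rats were above the sham rats.

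Several red cell miRNAs were higher in TBI as well, though none passed in edgeR. All 11 of the list (miR-451, miR-144, miR-486, miR-16, miR-15a and miR-363) were tested and none was at 0 in any UCLA rat. Of them 5 had an unadjusted p below 0.05, all higher in TBI, and 10 of 11 had a log2 fold change above 0. Over all miRNAs 40 of 739 were higher at this p and 319 were above 0, and of the 185 most abundant 26 were higher. The median of the list was 0.55 (0.30 scaled to miR-28-3p and 0.13 with total counts). Their summed level was 347681, 255503 and 233021 CPM in the sham rats, 508897, 387344 and 372893 in the TBI− rats and 489889, 369106 and 492401 in the TBI+ rats. Every injured rat was above every sham rat on this scale. As a share of all counts, without TMM, the list held 33.2% ± 4.84 in sham (n = 3) and 39.6% ± 3.42 in TBI rats (n = 6). The groups then overlapped, with TBI+ rats 1 and 2 below sham rat 1.

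The most abundant member, miR-16-5p, was at 188839, 118808 and 163632 CPM in the sham rats and from 163389 to 304218 in the TBI rats (median 239361; log2 fold change of 0.60 with SE 0.26; edgeR adjusted p = 0.367). miR-486 was at 156576, 135097 and 67524 CPM in the sham rats and from 144453 to 245389 in the TBI rats (median 194465; 0.71, SE 0.30, edgeR adjusted p = 0.36). miR-451-5p, which is needed for red cell maturation, was at 1515, 987 and 1109 CPM in the sham rats and from 868 to 3742 in the TBI rats (median 2780; 1.06, SE 0.43, edgeR adjusted p = 0.336). In each of the 3 the groups overlapped, and for miR-16-5p and miR-451-5p the lowest injured rat was TBI− rat 3. miR-144-3p, encoded beside miR-451, was at 34.1 ± 4.71 CPM in sham and 68.1 ± 28.0 in TBI rats (1.00, SE 0.37, edgeR adjusted p = 0.325).

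With the ratio of miR-451 to miR-23a in the edgeR model, 0 miRNAs passed after adjustment and 22 had an unadjusted p below 0.05 (13 higher, 9 lower). Only 13 of the 95 were among the 22, while 91 of the 95 kept their sign. The median log2 fold change of the red cell list was then 0.16, that of the miR-106b, miR-93 and miR-25 cluster 0.01, that of miR-191 and miR-425 0.20 and that of the miR-17 to miR-92a cluster 0.46, against −0.01 over all miRNAs. miR-425-5p was at 0.70, miR-92a-3p at 0.56 and miR-93-5p at 0.27. Since the ratio did not overlap between the groups, injury and the ratio cannot be told apart in these 9 rats. The red cell list holds miR-451-5p, which is also part of the ratio. A smaller median of that list is thus partly built into the model.

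The white cell and platelet list (miR-223, miR-142, miR-150 and miR-342) had a median of 0.55 over 8 miRNAs (0.35 without TBI+ rat 1 and 0.13 with total counts). Of these, 7 were above 0 and 1 had an unadjusted p below 0.05, against 319 above 0 and 40 higher of all 739. This was miR-142-3p, a miRNA of blood cells in general, at 6715, 3811 and 6518 CPM in the sham rats and from 4615 to 16940 in the TBI rats (median 10919; 0.93, SE 0.37, edgeR adjusted p = 0.334). TBI− rat 3 lay within the sham range and the 5 other injured rats above it. The neutrophil miRNA miR-223-3p was at 24034 ± 898 CPM in sham and 39678 ± 22544 in TBI rats, where TBI+ rat 1 was at 84430 CPM and the other 5 injured rats at 20832 to 36311. The summed level of the list was 92434, 86126 and 73181 CPM in the sham rats and from 96329 to 182926 in the TBI rats. As a share of all counts, without TMM, it was 10.1% ± 1.46 in sham (n = 3) and 10.9% ± 2.16 in TBI rats (n = 6). On that scale the groups overlapped, and 2 injured rats lay below all sham rats. Its most abundant member, the lymphocyte miRNA miR-150-5p, differed little (38426 ± 8203 and 49022 ± 9310 CPM, log2 fold change 0.35, SE 0.25, edgeR adjusted p = 0.549). From which cells these miRNAs entered the plasma, and how, was not tested.

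**Figure D3:**
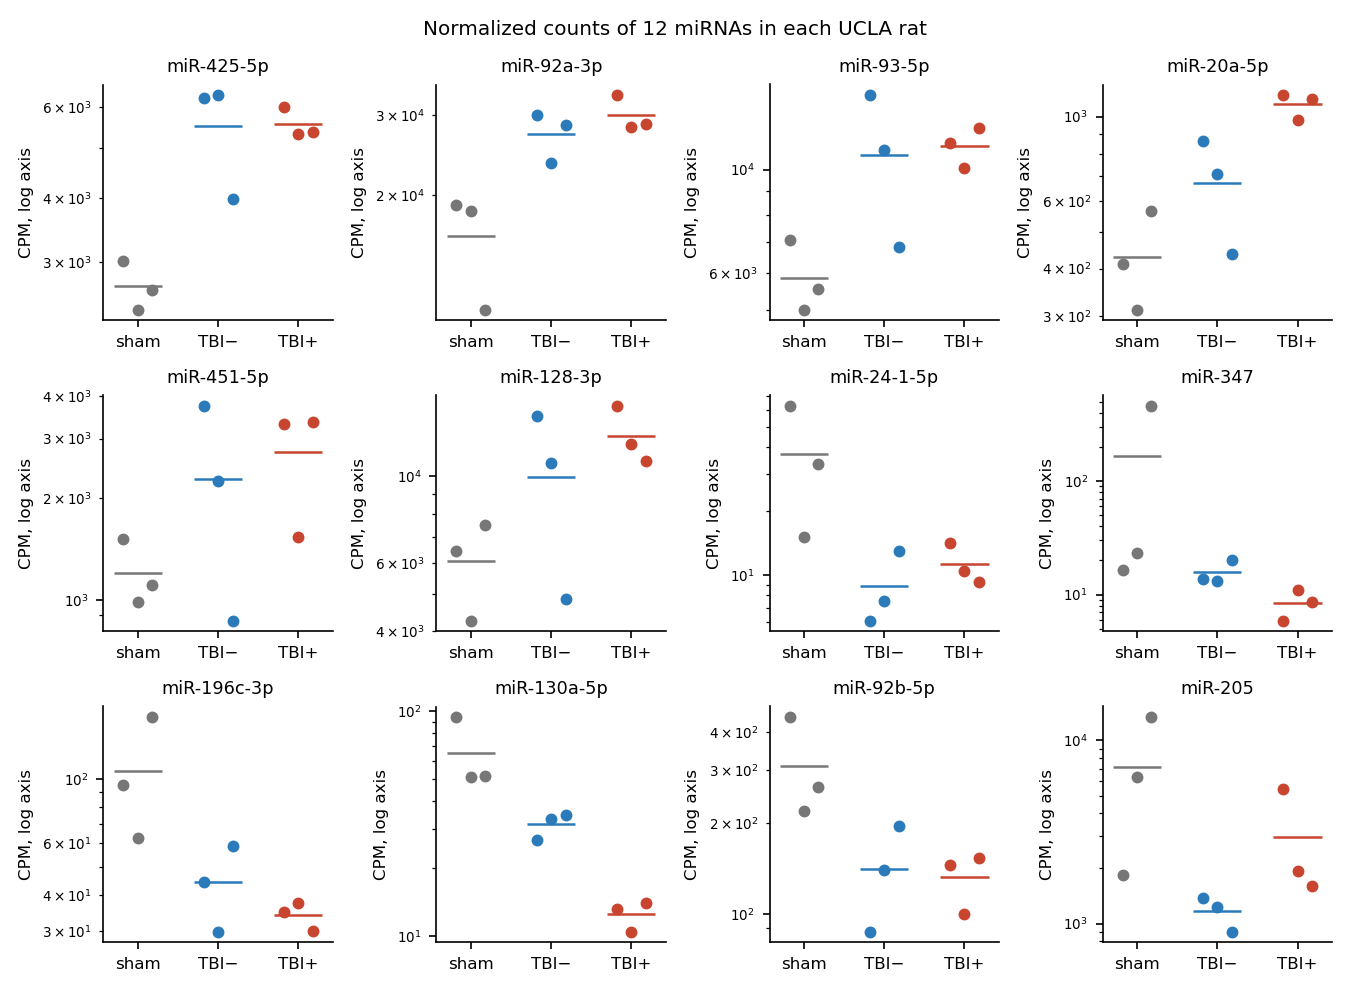
CPM (log axis) of 12 miRNAs in each UCLA rat, with 1 point for each rat and a bar at the group mean (n = 3 each). miR-425-5p, at 2422 to 3006 CPM in sham and 3985 to 6332 in injured rats, is 1 of 6 miRNAs shown whose TBI and sham rats do not overlap.

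Of the miRNAs lower in TBI with the lowest p, miR-24-1-5p, miR-3583-3p, miR-92b-5p and miR-130a-5p were below their partner arms in every rat. In sham rats 1 and 3 and in TBI+ rats 2 and 3 miR-196c-3p was above its partner miR-196c-5p, and miR-347 has no arm in its name. miR-24-1-5p, the partner of miR-24-3p, was at 62.5, 15.1 and 33.5 CPM in the sham rats and from 6.08 to 14.2 CPM in the TBI rats (median 9.85). The groups did not overlap, but sham rat 2 was close to the highest injured rat. Its log2 fold change was −1.87 (SE 0.41, edgeR adjusted p = 0.129; DESeq2 −1.80, adjusted p = 0.0357). Without sham rat 2 it was −2.24 and passed in edgeR (adjusted p = 0.0306, the lowest of its alternatives, the highest being 0.963 with the miR-451 ratio in the model). The abundant arm miR-24-3p was at 6264 ± 920 CPM in sham (n = 3) and 6080 ± 1281 in TBI rats (n = 6), a log2 fold change of −0.04 (SE 0.25).

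miR-196c-3p, from a hairpin of the Hox gene clusters, was at 95.1, 62.5 and 163 CPM in the sham rats and from 29.9 to 58.8 in the TBI rats (median 36.2). Every injured rat lay below every sham rat. The log2 fold change was −1.45 (SE 0.32, edgeR adjusted p = 0.129; DESeq2 −1.36, adjusted p = 0.0166). miR-130a-5p was at 94.1, 50.9 and 51.5 CPM in the sham rats and at 26.8, 33.2 and 34.7 in the TBI− and 13.1, 10.4 and 14.1 in the TBI+ rats. The 3 groups were thus ordered without overlap (TBI against sham −1.57, SE 0.40, edgeR adjusted p = 0.182). Its partner miR-130a-3p was at 164 ± 73.5 CPM in sham and 178 ± 40.7 in TBI rats. miR-92b-5p was at 448, 220 and 263 CPM in the sham rats and from 87.6 to 196 in the TBI rats (median 142.7; −1.18, SE 0.30, edgeR adjusted p = 0.182), again without overlap. Its partner miR-92b-3p, with the seed of miR-92a-3p, was at 1597 ± 273 and 1809 ± 570 CPM.

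miR-3583-3p was at 56.0, 17.1 and 46.5 CPM in the sham rats and from 12.2 to 18.7 in the TBI rats (median 15.9; −1.36, SE 0.33, edgeR adjusted p = 0.157). Sham rat 2 lay within the injured range. Without it the difference was −1.71 and miR-3583-3p was 1 of 3 miRNAs that passed, with miR-24-1-5p and miR-347. Under all settings tried, each of these 5 miRNAs remained lower in TBI.

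In all, the groups did not overlap for 16 miRNAs that were higher (2.17%) and 23 that were lower in TBI (3.11%). With CPM from total counts alone these numbers were 4 and 70. Without TBI− rat 3 the 39 miRNAs became 110, without sham rat 1, 2 or 3 they became 91, 76 and 83, and without TBI+ rat 1 they became 59.

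miR-347 had the largest negative log2 fold change, which came from 1 rat. It was at 16.5, 23.2 and 458 CPM in the sham rats and from 5.88 to 20.2 in the TBI rats (median 12.0). Apart from sham rat 3 the sham rats were at or near the upper end of the injured rats. The log2 fold change was −3.79 (SE 0.82, edgeR adjusted p = 0.129) with and −0.74 without sham rat 3, and DESeq2 gave no adjusted p for it.

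Sham rat 3 was also the highest of all rats in miR-205, miR-203a-3p and miR-203b-5p, which are known from skin. miR-205, a miRNA of stratified epithelia, was at 1840, 6306 and 13380 CPM in the sham rats, 1383, 1233 and 903 in the TBI− rats and 5402, 1933 and 1598 in the TBI+ rats. The difference was −1.79 (SE 0.60, edgeR adjusted p = 0.313), and sham rat 1 lay within the range of the injured rats. miR-203a-3p, a miRNA of keratinocytes that differentiate, had the same order among the sham rats, with 400, 1293 and 3750 CPM, and 170 to 1058 in the TBI rats (−1.68, SE 0.62, edgeR adjusted p = 0.318). Of the 5 miRNAs of miR-203 and miR-205, a list chosen after the values were seen, 3 had an unadjusted p below 0.05, all lower in TBI, and 5 of 5 were below 0, against 55 lower and 420 below 0 of all 739. The median was −1.17, and −0.50 without sham rat 3. The summed level was 2298, 7734 and 17357 CPM in the sham rats and from 1144 to 6573 in the TBI rats. Blood was drawn through the skin of the tail, and the part of skin in these values was not tested.

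The vessel list was planned with miR-126 as well, but the deposited names miR-126a and miR-126b were not matched and were left out. Unscaled counts of miR-126a-3p were 27228, 16175 and 35527 in the sham rats and from 6587 to 33018 in the TBI rats. Of the vessel list as counted (4 arms of miR-143 and miR-145, both of smooth muscle), all 4 were below 0, against 420 of all 739. In this list 1 had an unadjusted p below 0.05, lower in TBI, against 55 lower of all 739. The median was −0.66, with −0.99 scaled to miR-28-3p and −1.18 with total counts. It was −1.08 without TBI+ rat 1, −1.25 with the TBI− rats alone and −0.24 with the TBI+ rats alone. miR-145-5p was at 964, 1872 and 1321 CPM in the sham rats and from 538 to 1243 in the TBI rats (median 685; −0.86, SE 0.31, edgeR adjusted p = 0.313). Only TBI+ rat 1 reached the sham range. miR-143-3p, the most abundant of the list, varied widely (3517, 7333 and 7462 CPM in sham and 1094 to 12732 in TBI rats). Its log2 fold change was −0.47 over all injured rats and 0.17 with the TBI+ rats alone.

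Among the miRNAs tested, 2 were listed at 0 in all 3 sham rats. miR-301a-5p had counts of 23, 25 and 17 in the TBI− and 14, 13 and 17 in the TBI+ rats. miR-1-5p, the partner of the muscle miRNA miR-1-3p, had counts of 7, 11 and 8 in the TBI− and 29, 18 and 24 in the TBI+ rats. They had the lowest p in this direction in edgeR (2.5e-04 for miR-301a-5p, adjusted 0.129) and passed in DESeq2, but no fold is given. In the UCLA columns 1 value was 1, 6 were 2 and 10 were 3, while 0 was far more frequent than all of these. Of the miRNAs tested, 44 held a 0 in at least 1 UCLA rat (113 values), with medians of 12 to 49 counts in the other rats. A 0 in this table may therefore not be an ordinary low count. The zeros were also shared within pairs of rats. Over the 754 miRNAs sham rats 1 and 2 held 24 each and TBI− rats 2 and 3 held 16 each, at the same miRNAs. TBI+ rats 1 and 2 held 40 and 41, at nearly the same miRNAs. Zeros of such a pair may not be separate observations, and their cause was not tested. The abundant arms were not at 0: miR-301a-3p was at 90.9 ± 19.1 CPM in sham (n = 3) and 144.3 ± 34.1 in TBI rats (n = 6), and miR-1-3p at 75.3 ± 50.0 and 83.7 ± 71.6. In the sham rats of the other sites miR-301a-5p had counts of 7, 0, 0 and 14 (UEF) and 13, 15 and 6 (Monash), and miR-1-5p of 14, 16, 3 and 32 (UEF) and 24, 22 and 31 (Monash). With sham rat 3 left out 1 miRNA passed in edgeR, miR-6319, whose sham counts were 0, 0 and 25 and whose counts in the TBI rats were 27 to 51. Its zeros were those of sham rats 1 and 2, a pair that shared its zeros.

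Brain miRNAs lay on both sides of 0. Of 32 tested, 1 was higher and 5 were lower at an unadjusted p below 0.05, against 40 and 55 of all 739. Of the 32, 16 were above 0 and 16 below, and the median was 0.01 (−0.050 to 0.046 with a rat left out, −0.35 with total counts and −0.21 with scaling to miR-28-3p). The most abundant of them, miR-128-3p, whose source in this plasma was not tested, was at 6437, 4259 and 7504 CPM in the sham rats. In the TBI rats it was at 14249, 10804 and 4834 CPM (TBI−) and 15132, 12068 and 10970 CPM (TBI+). TBI− rat 3 lay in the sham range and the other 5 injured rats above it (log2 fold change 0.90, SE 0.35, edgeR adjusted p = 0.325). It made up most of the list's summed level, which was 7845, 5667 and 9114 CPM in the sham rats and from 6279 to 16807 in the TBI rats. The 5 lower ones were all low in abundance, from the arms miR-138-1-3p, miR-218a-1-3p, miR-128-2-5p, miR-132-5p and miR-7a-2-3p. miR-138-1-3p had the lowest p of the list, with 101, 25.7 and 65.2 CPM in the sham rats and 20.1 to 36.5 in the TBI rats (−1.26, SE 0.37, edgeR adjusted p = 0.303). Sham rat 2 lay within the range of the injured rats. Its partner miR-138-5p, known from synapses, was at 89.1 ± 45.9 CPM in sham and 97.5 ± 6.45 in TBI rats.

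The 7 miRNAs that the study took to PCR, chosen in part on these same samples, were as follows at UCLA. miR-323-3p, from the imprinted cluster expressed in brain, was at 11.0, 15.1 and 19.7 CPM in the sham rats and from 19.3 to 37.4 in the TBI rats (median 27.2; 0.89, SE 0.30, edgeR adjusted p = 0.313). Only TBI− rat 3 overlapped the sham rats, by less than 1 CPM. miR-183-5p, of the sensory cluster, was at 232, 270 and 562 CPM in the sham rats and from 380.9 to 980 in the TBI rats (median 683; 0.94, SE 0.41, edgeR adjusted p = 0.367). Sham rat 3 lay above 2 of the 6 injured rats, and without it the difference was 1.41. miR-434-3p was at 109, 107 and 181.9 CPM in the sham rats and from 121.7 to 220 in the TBI rats (median 192.3; 0.46, SE 0.27, edgeR adjusted p = 0.457). miR-9a-3p, a miRNA of neurons and their precursors, was at 65.2, 80.6 and 80.7 CPM in the sham rats, 117, 121 and 117 in the TBI− rats and 43.6, 56.9 and 42.6 in the TBI+ rats. The TBI− rats were above and the TBI+ rats below every sham rat, so that the TBI difference was 0.14 (SE 0.39, edgeR adjusted p = 0.884). For miR-212-3p the log2 fold change was −0.38 (SE 0.45), for miR-132-3p 0.17 (SE 0.32) and for miR-124-3p 0.27 (SE 0.24), all within the spread between rats. The reference miR-28-3p was at 456, 397 and 426 CPM in the sham rats and from 422 to 610 in the TBI rats (0.24, SE 0.21, edgeR adjusted p = 0.626).

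Of the imprinted miR-379 to miR-410 cluster and the Rtl1-antisense miRNAs, a large group expressed in brain and placenta, 89 of 92 were tested. 3 were higher and 5 lower at an unadjusted p below 0.05, against 5.41% and 7.44% over all miRNAs. Of the 89, 29 were above and 60 below 0, against 319 and 420 of all 739, and the median was −0.22 (−0.14 without TBI+ rat 1). The lowest p was that of miR-543-5p, at 193, 145.1 and 103 CPM in the sham rats and from 47.1 to 101 in the TBI rats (−1.02, SE 0.29, edgeR adjusted p = 0.255). The groups did not overlap, with TBI+ rat 1 just below sham rat 3. The most abundant, miR-379-3p, was at 364 ± 142.8 CPM in sham and 515 ± 234 in TBI rats. The sensory cluster (miR-183, miR-96 and miR-182, 4 of 5 tested) had 4 above 0, of which 1 had an unadjusted p below 0.05, and a median of 0.25. That median was −0.09 with total counts, 1.05 with the ratio in the model, 0.54 without sham rat 3 and 0.11 without sham rat 1. miR-182 was at 175, 264 and 573 CPM in the sham rats and from 231 to 522 in the TBI rats.

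Of 5 miRNAs of the liver list none had an unadjusted p below 0.05, 4 of 5 were below 0, and the median was −0.24 (−0.60 with total counts and −0.04 without sham rat 3 or without TBI− rat 2). The liver and gut list (5 miRNAs of miR-192, miR-194 and miR-215) had 0 such miRNAs and a median of −0.00. This median took either sign, from −0.42 with total counts to 0.10 in DESeq2, 0.43 without sham rat 3 and 0.65 with the ratio in the model. miR-192-5p was at 4019 ± 1801 CPM in sham and 4083 ± 1009 in TBI rats. Muscle and heart miRNAs (13 tested) had 1 such miRNA, the miR-1-5p listed at 0 in sham rats, and a median of −0.37, or −0.38 without it. miR-206-3p, of skeletal muscle, was at 214, 282 and 350.8 CPM in the sham rats, 172, 161 and 139 in the TBI− rats and 474, 600 and 250 in the TBI+ rats. The TBI− rats were thus the lowest.

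Inflammation miRNAs (miR-21, miR-146 and miR-155, 8 tested) had 0 with an unadjusted p below 0.05 and a median of 0.15, which was below 0 with total counts (−0.23) and with scaling to miR-28-3p (−0.07) and was 0.27 without sham rat 2. miR-146a-5p, a brake on innate immune signalling, was at 8988 ± 1619 CPM in sham and 11978 ± 4685 in TBI rats. miR-155-3p was at 5.97, 5.04 and 13.7 CPM in the sham rats and at 0 in 4 of the 6 TBI rats. The epithelial list (9 tested) had 5 below 0, of which 1 had an unadjusted p below 0.05, miR-200c-3p (568 ± 350 and 314 ± 75.7 CPM, −0.85, SE 0.37, edgeR adjusted p = 0.367), and a median of −0.17. Over all 739 miRNAs 420 were below 0 and 55 lower at this p. Without sham rat 3 the list's median was 0.28 and miR-200c-3p was at −0.35, and without sham rat 1 the median was −0.45.

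Of the pancreas list (8 tested) 0 had an unadjusted p below 0.05, with a median of −0.08 (−0.22 to 0.04 with a rat left out), and miR-375-3p, of pancreatic islets and gut, was at 682, 964 and 931 CPM in the sham rats and from 617 to 1527 in the TBI rats. The miR-503 cluster (10 tested) had 0 and a median of 0.05, and cartilage miRNAs (4 tested) 0 and a median of 0.11. With total counts and with scaling to miR-28-3p both medians were below 0 (−0.27 and −0.14, −0.21 and −0.07). With a rat left out they ran from −0.046 to 0.26 and from −0.099 to 0.34. miR-140-3p, a cartilage miRNA that is also abundant in blood, was at 44320, 20778 and 39570 CPM in the sham rats and from 9407 to 56095 in the TBI rats. TBI+ rat 1 was the lowest of all. Choroid plexus miRNAs (miR-204 and miR-211, 4 tested) had 3 below 0, of which 1 had an unadjusted p below 0.05, and a median of −0.34 (−0.064 without sham rat 1 and −0.63 without TBI+ rat 1). Over all miRNAs 420 of 739 were below 0 and 7.44% lower at this p. The 1 was miR-204-5p, at 56.5, 144.1 and 204.8 CPM in the sham rats and from 18.3 to 111 in the TBI rats (−1.66, SE 0.54, edgeR adjusted p = 0.313). TBI+ rat 1 was the only injured rat within the sham range.

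**Figure D4:**
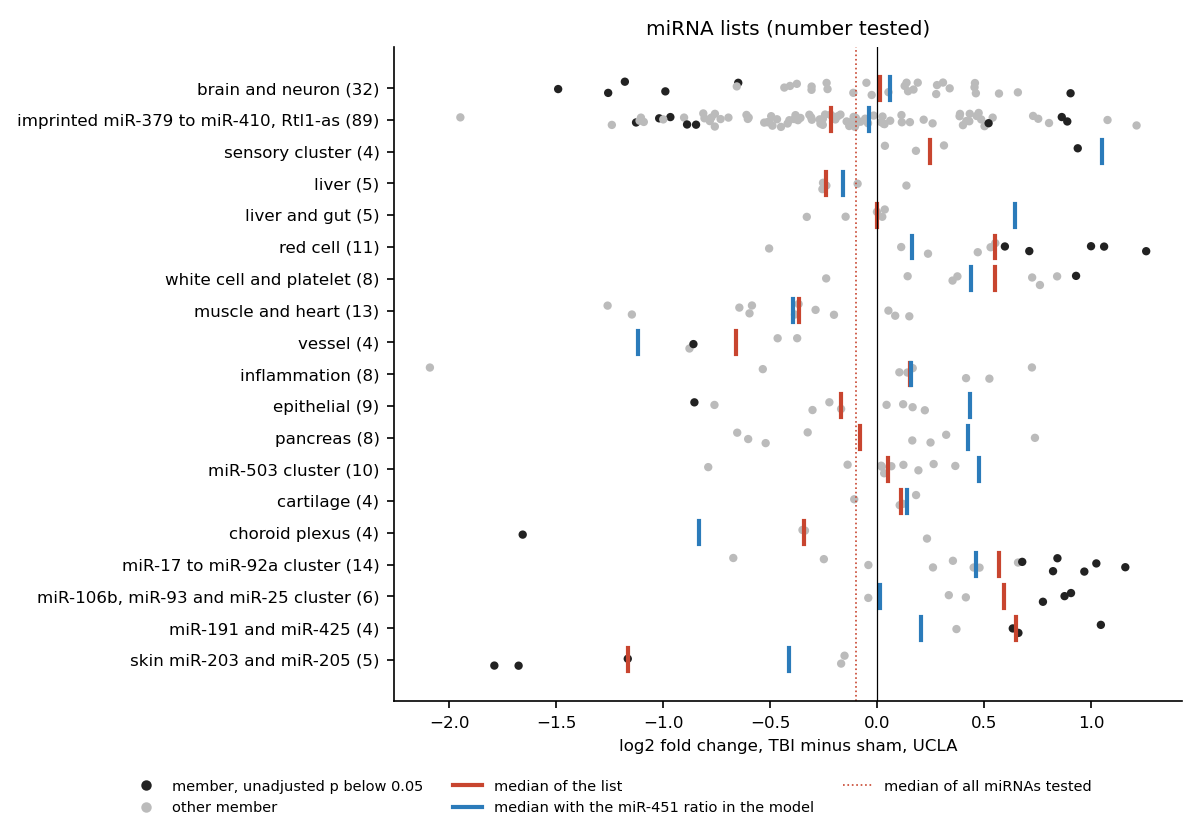
Log2 fold change (TBI minus sham) of each tested member of 19 miRNA lists at UCLA, without miR-1-5p, listed at 0 in all sham rats. Red bars mark the median of each list and blue bars that with the miR-451 ratio in the model, and the red cell median moves from 0.55 to 0.16. The red cell list holds miR-451-5p, which is part of the ratio.

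The injured rats were not alike. With the 3 TBI+ rats alone against the 3 sham rats, edgeR called 97 of 726 miRNAs, 26 that rose (3.58%) and 71 that fell (9.78%). With the 3 TBI− rats alone against the same sham rats it called 0 of 735 (0%), where 75 had an unadjusted p below 0.05. Both comparisons share the sham rats. Of the 71 that fell, 12 were listed at 0 in at least 2 TBI+ rats, such as miR-297 with counts of 24, 15 and 16 in the sham rats and 0 in all TBI+ rats, and of the 26 that rose miR-1-5p was at 0 in all sham rats. TBI+ rats 1 and 2 shared nearly all of their zeros, so zeros in both may not be separate observations. With at least 10 counts required in every UCLA rat 93 of 646 miRNAs were called, 78 of them among the 97. The difference between TBI+ and TBI− rats was tested in a model of all 9 rats, where 13 of 739 miRNAs were higher (1.76%) and 65 lower (8.8%) in TBI+ rats. With the miR-451 ratio in the model the 97 became 1, while 96 of the 97 kept their sign. DESeq2 called 63 that rose and 61 that fell. The calls numbered 181 with total counts (5 that rose and 176 that fell) and 100 with the replicate number as a block (33 and 67). They were 25 without sham rat 2 and 13 without TBI+ rat 2, and 33, 50, 51 and 61 without each of the other rats in turn.

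miR-673-3p had the lowest p of those that fell and, with the other miRNAs named here, was chosen after its values were seen. It was at 79.0, 56.9 and 39.1 CPM in the sham rats and 69.4, 65.6 and 89.9 in the TBI− rats, but at 6.57, 4.75 and 7.78 in the TBI+ rats. Only the TBI+ rats were low (TBI+ against sham −3.16, SE 0.41, edgeR adjusted p = 0.00272; TBI− against sham 0.37, SE 0.32). miR-1193-3p and miR-337-3p, both of the imprinted group, behaved alike (−2.71, SE 0.36, and −2.71, SE 0.38, in TBI+ rats). miR-337-3p was at 69.3, 71.5 and 39.5 CPM in the sham rats, 84.8, 66.4 and 113 in the TBI− rats and 7.96, 10.9 and 8.52 in the TBI+ rats. Of 85 imprinted miRNAs tested in TBI+ rats 10 fell and 1 rose, against 71 and 26 of all 726 (9.78% and 3.58%), with a median of −0.45 against −0.15.

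Among those that rose in TBI+ rats were both arms of miR-144. miR-144-5p was at 50.5, 40.3 and 65.2 CPM in the sham rats, 88.0, 68.1 and 45.5 in the TBI− rats and 207.5, 131 and 206.4 in the TBI+ rats. The 3 TBI+ rats were the highest (1.83, SE 0.31, edgeR adjusted p = 0.00581). Of the red cell list 2 of 11 rose, of the miR-17 to miR-92a cluster 4 of 14, and of the white cell and platelet list 3 of 8, with medians of 0.68, 0.84 and 0.79, against 26 of all 726 (3.58%) with a median of −0.15. miR-425-5p rose by 1.07 in TBI+ rats (SE 0.29, edgeR adjusted p = 0.038) and was at 1.05 (SE 0.31, edgeR adjusted p = 0.22) in TBI− rats, and the difference between TBI+ and TBI− rats was 0.01. By abundance, 15 of the 26 that rose but 5 of the 71 that fell were among the 185 most abundant miRNAs.

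The injury difference at UCLA was compared with that at UEF (8 TBI, 4 sham) and Monash (5 TBI, 3 sham), which share no rats with it. In edgeR 16 of 749 miRNAs passed at UEF (2.14%), and 0 of 734 at Monash (0%), where 25 had an unadjusted p below 0.05. DESeq2 was not run for these sites. Across 731 miRNAs, which are not independent replicates, the log2 fold changes at UCLA had a Spearman correlation of 0.02 with those at UEF and −0.24 with those at Monash. Of the 40 miRNAs higher at UCLA 30 had the same sign at UEF and 12 at Monash, and of the 55 lower ones 24 and 22. Of all 731 miRNAs 50.5% had the same sign at UEF and 41.5% at Monash. With an unadjusted p below 0.05 and the same sign at both sites there were 13 at UEF (13.7% of those at UCLA and 12.1% of those at UEF), among them miR-128-3p, miR-323-3p, miR-451-5p, miR-486 and miR-301a-5p. With the opposite sign there were 2, miR-24-1-5p (0.99 at UEF) and miR-138-1-3p (0.86). At Monash 1 had the same sign, miR-183-5p (1.05% and 4%), with log2 fold changes of 0.94 at UCLA, 0.75 at UEF and 1.68 at Monash. Another 2 had the opposite sign there, miR-6323 (−1.11 at UCLA and 1.30 at Monash) and miR-6331 (−1.15 and 3.28).

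Whether the difference at UCLA was another than the mean of that at the other sites was tested in a model of all 29 rats. By this test 2 of 754 miRNAs passed (0.265%), both lower in TBI at UCLA. For miR-138-1-3p the log2 fold changes were −1.26 at UCLA, 0.86 at UEF and 0.68 at Monash, and the difference was −1.93 (SE 0.39, edgeR adjusted p = 0.0116). The UCLA sham rats held 95.1, 24.3 and 59.7 CPM on the scale of all 29 rats, against 18.7 to 32.8 in UEF and 13.8 to 27.6 in Monash sham rats. Sham rats 1 and 3 were above all sham rats of the other sites, and without sham rat 1 the difference was −1.43 (edgeR adjusted p = 0.254). For miR-347 the difference was −3.46 (SE 0.69, edgeR adjusted p = 0.0116), and −0.44 (adjusted p = 0.698) without sham rat 3. Sham rat 3 held 419 CPM on this scale, and the other 28 rats 5.96 to 22.6. DESeq2 called 8 miRNAs in this test, miR-138-1-3p among them, but gave no adjusted p for miR-347. edgeR called 0 with the replicate number as a block.

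The red cell list had medians of 0.55 at UCLA, 0.55 at UEF and −0.42 at Monash, and the miR-17 to miR-92a cluster 0.57, 0.15 and −0.11. The liver list, at −0.24 at UCLA, was at −2.59 at UEF and −0.83 at Monash. For miR-425-5p the log2 fold change was 1.04 at UCLA, 0.35 at UEF and 0.13 at Monash. None of these miRNAs passed the test of UCLA against the other sites, and the medians were not tested.

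**Figure D5:**
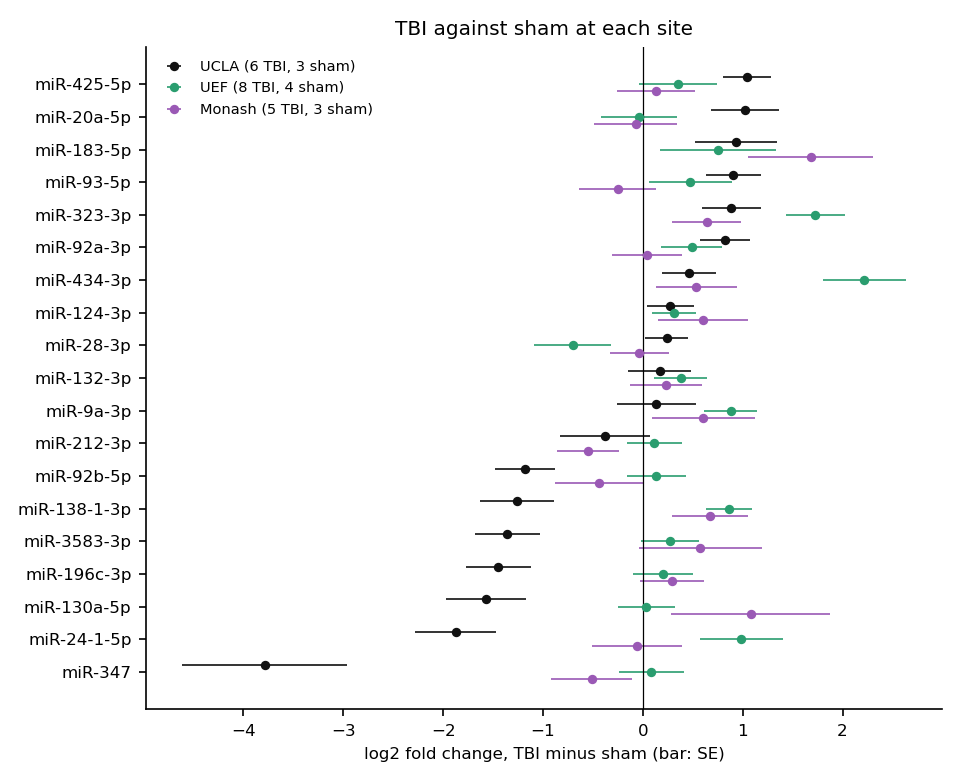
Log2 fold change of TBI against sham with its SE at UCLA, UEF and Monash for the 19 miRNAs named by p or taken from the study, without the 2 listed at 0 in all UCLA sham rats. miR-138-1-3p lies at −1.26 at UCLA and at 0.86 and 0.68 at the other sites.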

How the data were processed

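Plasma small RNA of 29 rats was sequenced, and the 9 rats of UCLA were compared here. The authors deposited miRNA counts for each rat, made from reads trimmed with cutadapt and aligned with Bowtie to Rnor_6.0 per the submitters' processing notes. Whether reads were merged by their molecular tags is not stated. Counts were tested as deposited, 1 library for each rat, with totals of 1470861 to 3976506 over 754 miRNAs.

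miRNAs were kept by the expression filter of edgeR (minimum count 10), which left 739 of 754. The other 15 had at most 33 counts in any UCLA rat. TBI and sham rats were compared with the quasi-likelihood F test of edgeR 4.0.16 (limma 3.58.1, R 4.3.3) after TMM normalization, with p adjusted over all miRNAs tested by Benjamini-Hochberg at 0.05. Library measures were compared by exact permutation over rats. Log2 CPM used a prior count of 2. The scripts were tested on simulated data. Tables and figures used Python 3.11.15, numpy 2.4.6, pandas 2.3.3 and matplotlib 3.10.9.

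Alternatives were DESeq2 1.42.0, other scalings, filters and depth, the spread of all 29 rats, the replicate number as a block, the miR-451 ratio as a covariate, the TBI− or TBI+ rats alone, and each rat left out. Scaling to total counts and the alternatives for TBI+ rats alone were added after the data were seen.

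The miRNAs named are the 6 lowest p in each direction, the 7 miRNAs the study took to PCR with miR-28-3p, the 5 most abundant with miR-451 and miR-23a, those past the test between sites, and from each list the most abundant member and that with the lowest p. Partner arms, members of the same clusters and other miRNAs were named after their values were seen. Lists of miRNAs were drawn up for brain, the imprinted and sensory clusters, liver, liver and gut, red cells, white cells and platelets, muscle and heart, vessel, inflammation, epithelium, pancreas, the miR-503 cluster, cartilage and choroid plexus. The lists for miR-17 to miR-92a, miR-106b to miR-25, miR-191 with miR-425, and skin were added after the values were seen. The rats and lists were chosen with earlier results of these data known.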

Additional observations from a re-analysis of the deposited data

Results flagged for a closer look

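Of 52 groups of values, 4 held an injured rat that stood apart from the other injured rats by the Dixon test. About 1 in 20 would by chance, and all 4 were values of single miRNAs. miR-425-5p was at 3985 CPM in TBI− rat 3, against 5333 to 6332 in the other injured rats, and miR-128-3p was at 4834 CPM in the same rat, against 10804 to 15132. miR-192-5p was at 6088 CPM in TBI+ rat 2, against 3450 to 4127. miR-351-5p was at 465 CPM in TBI+ rat 1, against 2116 to 3871.

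In 2 miRNAs the difference between TBI and sham rats at UCLA was not that of the other sites. On the log2 scale the difference between sites was −3.46 for miR-347, where sham rat 3 was high, and −1.93 for miR-138-1-3p, where sham rats 1 and 3 were high. What set these rats apart was not tested.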

How the results depend on the processing

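The comparison has 3 sham rats, so single sham rats weigh heavily. Injury cannot be told apart from the rat number or, in these 9 rats, from the miR-451 to miR-23a ratio. Plasma is a mixture, and the source of a miRNA was not tested. Scaling matters because the median of all miRNAs moves with it, and several small differences change sign with total counts.

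The 0 miRNAs past the threshold became 7 in DESeq2, 2 with the spread of all 29 rats and 97 with the TBI+ rats alone. With single rats left out they ran from 0 to 3. The 39 miRNAs without overlap became 74 in CPM without TMM and 41 to 110 with a rat left out. For UCLA detected miRNAs, TBI minus sham, the −10.2 was −52.2 at equal totals and −13.9 to −4.93 with a rat left out. UCLA total miRNA counts, TBI minus sham, ran from 593376 to 1046800 with a rat left out, and the difference in the log2 ratio from 0.88 to 1.27. The 2 miRNAs that differed between sites became 8 in DESeq2, 5 with its size factors in edgeR and 1 to 7 with a rat left out. The 97 miRNAs of TBI+ rats became 181 with total counts, 1 with the ratio in the model and 13 to 61 with a rat left out.

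With the replicate number as a block the counts were 0 at UCLA, 0 between sites and 100 in TBI+ rats. The numbers do not pair the rats: the 9 pairs with the same number correlated at −0.216 to 0.13, 1 of them above 0.1, and not every rat correlated best with its own number.

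These log2 fold changes of single miRNAs changed sign. Scaled to total counts: miR-124-3p −0.10, miR-132-3p −0.22, miR-140-3p −0.15, miR-146a-5p −0.020, miR-150-5p −0.021, miR-192-5p −0.36, miR-206-3p −0.36, miR-28-3p −0.16, miR-375-3p −0.18, miR-429 −0.37 and miR-9a-3p −0.20. Scaled to miR-28-3p: miR-132-3p −0.065, miR-140-3p −0.0032, miR-192-5p −0.20, miR-206-3p −0.19, miR-375-3p −0.027, miR-429 −0.20 and miR-9a-3p −0.051. With TBI− rats alone: miR-132-3p −0.054, miR-146a-5p −0.0083, miR-192-5p −0.13, miR-206-3p −0.82, miR-351-5p 0.11, miR-379-3p −0.043 and miR-429 −0.036. With TBI+ rats alone: miR-143-3p 0.17, miR-23a-3p 0.14 and miR-9a-3p −0.64. With the ratio in the model: miR-140-3p −0.13, miR-155-3p 0.23, miR-194-3p 0.080, miR-212-3p 0.034 and miR-351-5p 0.10. With the spread of all 29 rats miR-23a-3p was 0.016, and with 10 counts in every rat miR-192-5p was −0.012. With single rats left out, miR-132-3p ran from −0.039 to 0.63, miR-140-3p from −0.084 to 0.41, miR-192-5p from −0.16 to 0.43, miR-206-3p from −0.24 to 0.26, miR-23a-3p from −0.26 to 0.025, miR-351-5p from −0.29 to 0.13, miR-375-3p from −0.016 to 0.29 and miR-429 from −0.23 to 0.56. The cause of these changes was not tested.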
